A study of Mus musculus with 24 samples.

Results

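The genes of amino acid breakdown and the urea cycle were followed across 24 arrays of mouse primary hepatocytes treated with glucagon or insulin. A list of 50 genes was matched by symbol to probe sets that name a single gene, taking the probe set of highest mean level where a gene had several. Of these, 47 were measured among 22180 genes in all, and Gls2, Sds and Sdsl, which had no such probe set here, were not analysed. Mut was found under its current symbol, Mmut.

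Hepatocytes came from male C57Bl6J mice and were transduced with an adenovirus at a multiplicity of infection of 5. The virus carried a short hairpin RNA against FOXA2, a liver transcription factor (shFOXA2), or against the bacterial gene lacZ, which has no mouse counterpart and serves as the control (shlacZ). For 4 h the cells received 100 nM glucagon or 1 nM insulin, each in the presence of GW4064 at 2 µM, a man-made ligand that activates FXR, the nuclear receptor for bile acids, or of its solvent DMSO. All 8 groups shared a medium with 100 nM dexamethasone, a glucocorticoid, and 1 g per l of glucose. No group was analysed without a hairpin virus, or without hormone, so higher under glucagon cannot be told apart from lower under insulin. Each group held 3 arrays, 1 from each of 3 experiments, and each experiment used hepatocytes pooled from 3 mice. Values are log2 levels, on which a difference of 1 is a doubling. The median of all values was 3.25, and a level near it is close to the floor of the arrays. A gene passed when its limma p-value, adjusted by Benjamini-Hochberg over all 22180 genes, was under 0.05. Where the call depends on it, the value with the experiment as a block is given too, because arrays of the same experiment deviated together.

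Between meals the liver takes the amino groups off amino acids, feeds the carbon skeletons into glucose and ketone bodies, and disposes of the nitrogen as urea. Each amino acid has its own entry enzyme, transaminases pass the nitrogen to glutamate and aspartate, and the urea cycle runs from carbamoyl phosphate in the mitochondrion through citrulline and arginine in the cytosol back to ornithine. Glucagon, acting through cyclic AMP, and glucocorticoids are known inducers of several of these enzymes in liver, and insulin is known to oppose them.

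The hepatocyte marker Alb lay between 12.9 and 13.2 on all arrays, and all 8 hepatocyte markers were well above the floor. Of the markers of other cells, 5 of 7 for macrophages, 6 of 7 for stellate cells, 6 of 6 for lymphocytes, 3 of 5 for cholangiocytes and 2 of 7 for endothelial cells were below 4 on every array. Cd68, a lysosomal marker of macrophages, was between 7.86 and 10.1, and Cdh5 of endothelial cells between 6.22 and 7.99. The mean level of the endothelial list was 4.22 to 5.20 on glucagon arrays and 4.18 to 5.16 on insulin arrays, and that of the macrophage list 3.57 to 4.02 on glucagon arrays and 3.54 to 3.92 on insulin arrays. Foxa2, the hairpin's target, was lower with shFOXA2 than with shlacZ in 12 of 12 pairs of arrays, with an average difference of -0.43 (SE 0.072, adjusted p = 0.0613, with the block 0.0194, and without experiment 3 0.0081). That difference was -0.51, -0.66 and -0.12 in experiments 1, 2 and 3, so hairpin comparisons below rest on a partial loss of the Foxa2 transcript. Foxa2 also differed with the hormone. With shlacZ it was 7.11 to 7.72 under glucagon and 6.07 to 6.30 under insulin. With shFOXA2 it was 6.79 to 7.21 under glucagon and 5.54 to 6.08 under insulin. Every shFOXA2 glucagon array thus lay above every shlacZ insulin array.

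The hormone was the factor under which the amino acid genes moved. Averaged over both hairpins and both drug conditions, 21 of 47 genes were higher under glucagon than under insulin (44.7%) and 0 were lower. Among all genes 7.38% were higher and 8.85% lower. The 47 genes were chosen with earlier results of these data known, so the shares in this paragraph only describe the list. At least a doubling was passed by 12 of the 47, against 0.663% of all genes. The median log2 difference was 0.30 over the 47 and 0.01 over all genes, and 43 of the 47 lay above 0 (91.5%), against 52.3% of all genes. With the experiment as a block, 32 were higher and 0 lower, where 12% of all genes were higher and 12.6% lower. The shares of all genes, here and below, include many genes near the floor. Of the 22180 genes, 9041 had a mean level of at least 4. Tested alone, 38.5% of those 9041 passed in either direction. Haao, Uroc1, Bcat2 and Hgd had lower means and were not in that test. Of the other listed genes 26 passed, all of them higher under glucagon. Since these were bulk cultures, fewer cells of a type and less RNA per cell cannot be told apart.

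In 10 of the 47 genes every glucagon array was above every insulin array, a separation in that direction that 1.11% of all genes showed. They were Aass, Etnppl, Tat, Slc25a15, Mat1a, Aldh4a1, Got1, Cbs, Gpt2 and Mut. In 21 of the 47 the glucagon array was higher in all 12 pairs of the same experiment, hairpin and drug, and 17 of those 21 passed. Without experiment 1 the number of genes that passed the averaged test fell to 10, which were the 10 just named. Among the 11 that no longer passed were Hgd, Kmo, Oat, Slc25a13, Bckdha, Ivd, Mccc1 and Mccc2. Without experiment 2 or without experiment 3 the number was 19.

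**Figure D1:**
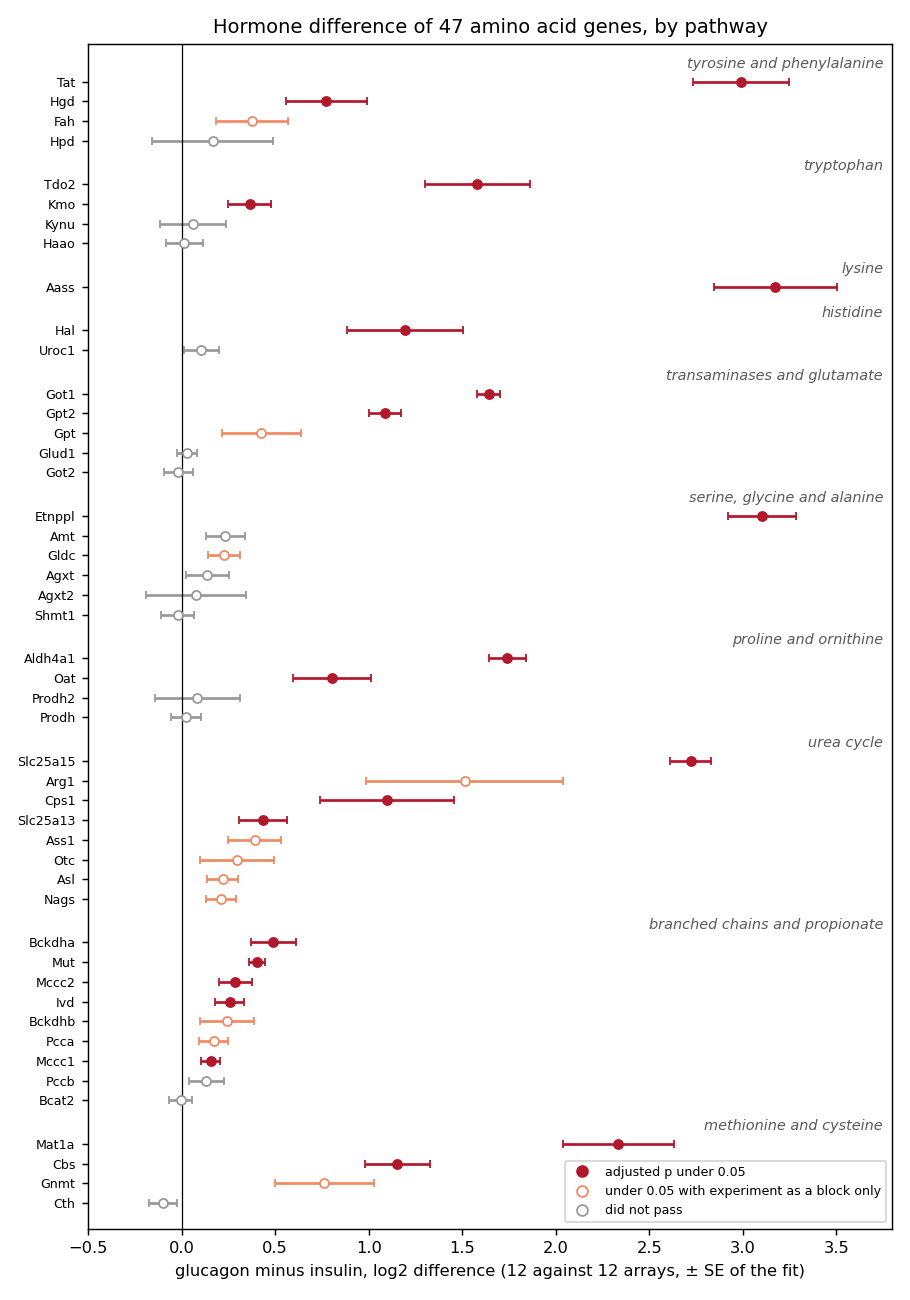
Glucagon minus insulin log2 difference of the 47 measured genes, grouped by pathway, with the standard error of the fit (12 against 12 arrays). Filled points passed at an adjusted p under 0.05, open orange points only with the experiment as a block, and grey points in neither fit. The differences run from -0.10 for Cth to 3.17 for Aass.

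Promoters of the 4 genes with the largest differences are printed here, since all 4 separated the hormones on every array. They are the 250 bases before the annotated start, written 5′ to 3′ on the gene's strand, from RefSeq's annotation of GRCm38.p6. Etnppl and Slc25a15 have 2 entries each, of which the first listed is shown. Capitals mark matches to the motifs described below.
Aass (chr6:23132987-23133236, minus strand): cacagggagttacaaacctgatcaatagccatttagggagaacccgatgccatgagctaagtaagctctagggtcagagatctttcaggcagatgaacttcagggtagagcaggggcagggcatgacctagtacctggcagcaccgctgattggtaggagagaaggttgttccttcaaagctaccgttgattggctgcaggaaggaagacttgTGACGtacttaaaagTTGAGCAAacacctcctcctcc
Etnppl (chr3:130617198-130617447, plus strand): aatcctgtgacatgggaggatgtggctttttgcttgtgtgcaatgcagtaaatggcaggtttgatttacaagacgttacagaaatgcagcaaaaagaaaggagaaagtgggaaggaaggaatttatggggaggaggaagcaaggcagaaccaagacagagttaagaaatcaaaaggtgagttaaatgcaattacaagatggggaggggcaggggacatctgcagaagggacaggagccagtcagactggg
Tat (chr8:109990186-109990435, plus strand): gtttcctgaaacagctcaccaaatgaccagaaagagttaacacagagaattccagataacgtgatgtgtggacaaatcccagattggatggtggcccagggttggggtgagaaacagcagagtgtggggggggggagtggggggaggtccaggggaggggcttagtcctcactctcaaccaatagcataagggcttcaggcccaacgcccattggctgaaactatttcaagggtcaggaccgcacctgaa
Slc25a15 (chr8:22398622-22398871, minus strand): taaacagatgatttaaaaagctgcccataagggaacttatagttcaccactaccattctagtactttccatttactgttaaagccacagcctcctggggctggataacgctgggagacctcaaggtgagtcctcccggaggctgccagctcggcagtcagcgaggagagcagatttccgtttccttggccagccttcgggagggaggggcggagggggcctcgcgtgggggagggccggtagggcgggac

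Motifs were searched on both strands in windows running from 250 bases before to 50 after the start, which were found for 39 of the 47 genes. A gene counted when any of its windows matched, whereas the share of all windows counted each window singly. The core of the cAMP response element, TGACG, occurred in 20.8% of all 32851 windows and in 6 of the 39 genes (Aass, Shmt1, Oat, Nags, Slc25a13 and Pcca). The full element TGACGTCA, which contains that core, occurred in 1.79% of all windows and in 0 of the 39. A C/EBP-type motif, TTGCNNAA, was in 10.8% of all windows and in 5 of the 39 genes (Hgd, Aass, Hal, Agxt2 and Prodh2). The forkhead core TGTTTAC was in 3.65% of all windows and in 0 of the 39 genes. The glucocorticoid response palindrome and the inverted repeat bound by FXR were each in 0.00913% of all windows and in 0 of the 39. Among the 4 printed genes, Aass alone held matches, with TGACG beginning 37 bases before the start and the C/EBP-type motif, on the other strand, 22 bases before it. These matches describe the letters of short windows, and distal elements were not examined.

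Several entry enzymes of single amino acids were higher under glucagon. Aass, the bifunctional enzyme that opens lysine breakdown in mitochondria, had a lowest, median and highest level of 7.49, 8.60 and 9.50 on the 12 glucagon arrays, against 4.09, 5.14 and 6.82 on the 12 insulin arrays. The ranges did not overlap, and the difference of 3.17 (SE 0.33, adjusted p = 4.7e-07) is a 9.03-fold higher level. It was 3.27, 3.58 and 2.67 in experiments 1, 2 and 3.

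Tat, tyrosine aminotransferase, which starts tyrosine breakdown and is a textbook target of glucocorticoids and cAMP, was at 11.49, 11.96 and 12.42 (lowest, median, highest) under glucagon and at 7.46, 9.30 and 9.76 under insulin. Its difference was 2.99 (SE 0.26, adjusted p = 3.5e-08). The insulin arrays of experiment 2 were the lowest, and the difference there was 3.59, against 2.67 and 2.71 in experiments 1 and 3. Downstream of Tat, Hgd, which opens the ring of homogentisate, was higher by 0.77 (SE 0.22, adjusted p = 0.0153), with the highest insulin array at 4.19 and the lowest glucagon array at 2.94. Hgd did not pass without experiment 1 (adjusted p = 0.243) or without experiment 3 (0.0738). On the insulin arrays its median was 3.30, which is near the floor. Fah, the closing step, had a difference of 0.38 (SE 0.19, adjusted p = 0.237, and 2.4e-05 with the block), and was higher under glucagon in 12 of 12 pairs. Hpd, between Tat and Hgd, had a difference of 0.17 (SE 0.32) and did not pass in either fit. Thus 2 of the 4 tyrosine genes passed, and 3 with the block.

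Tdo2, which opens the indole ring of tryptophan and commits it to the kynurenine pathway in liver, was at 5.29, 6.43 and 6.71 under glucagon and at 3.37, 4.57 and 5.53 under insulin. The groups overlapped slightly, but glucagon was higher in 12 of 12 pairs, by 1.58 on average (SE 0.28, adjusted p = 3.2e-04). The difference was 2.09 and 2.04 in experiments 1 and 2 and 0.61 in experiment 3, where the insulin arrays were the highest of all insulin arrays. Without experiment 1 it was 1.32, with an adjusted p of 0.0736. Kmo, which hydroxylates kynurenine, was higher by 0.36 (SE 0.12, adjusted p = 0.0366). It did not pass when any 1 experiment was left out (adjusted p = 0.0851, 0.0699 and 0.170 without experiments 1, 2 and 3) or with arrays centred on their medians (0.056). Kynu and Haao, the next enzymes, had differences of 0.06 and 0.01 and passed in neither fit, and Haao was below 4 on every array.

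Hal, histidine ammonia-lyase, releases ammonia from histidine without a transaminase. Its levels were 3.56, 4.31 and 6.27 under glucagon and 3.15, 3.30 and 4.00 under insulin, with a difference of 1.19 (SE 0.31, adjusted p = 0.0095). The glucagon arrays of experiment 3 stood well above the others, and the difference was 1.00, 0.57 and 2.02 in experiments 1, 2 and 3. Without experiment 1 it was 1.29, with an adjusted p of 0.131. The insulin levels were near the floor, which can understate the fold. Uroc1, the next histidine enzyme, was below 4 on all arrays, and its difference of 0.10 did not pass.

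**Figure D2:**
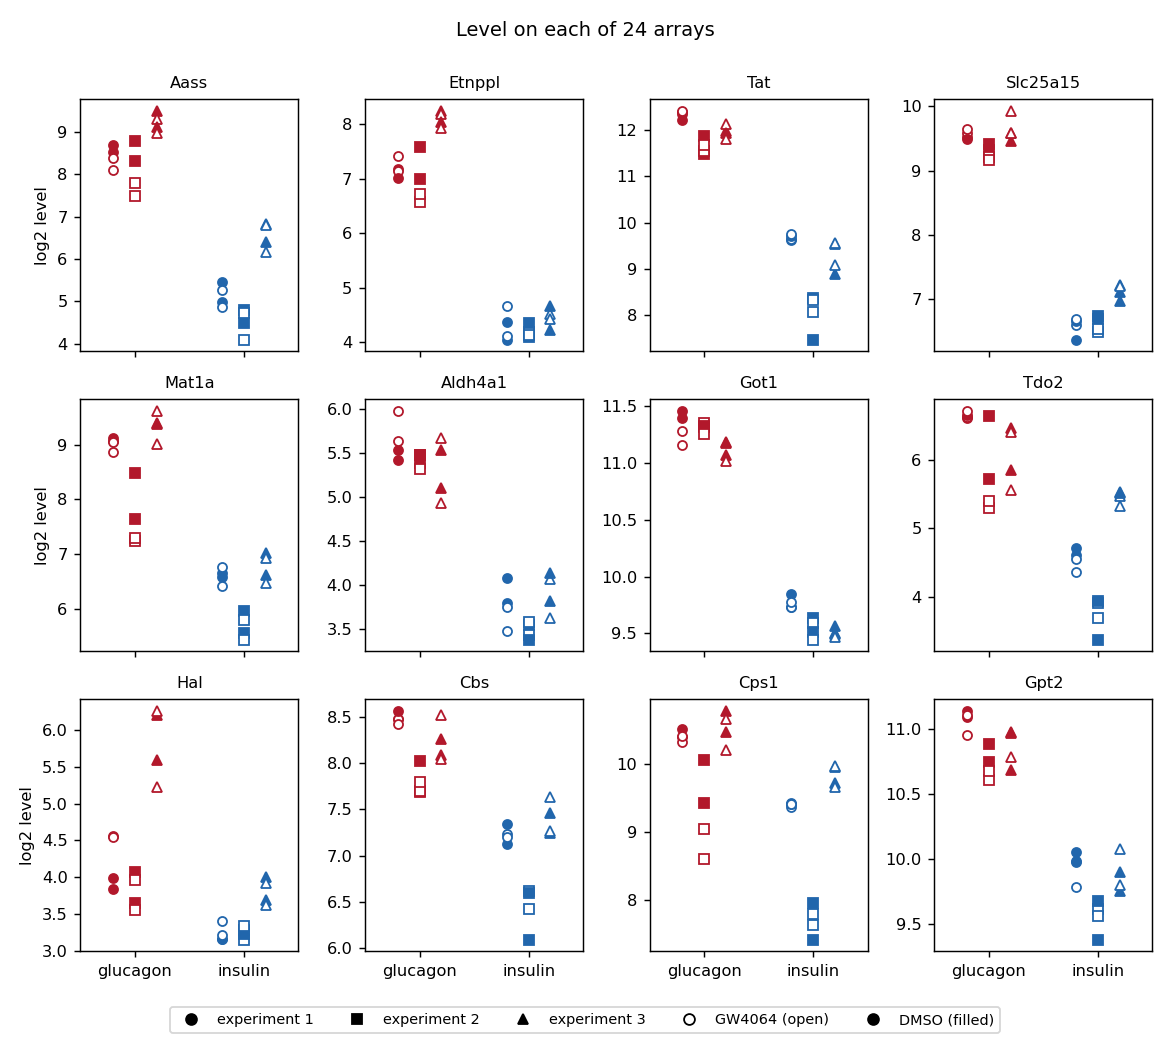
Log2 level of the 12 genes with a passing difference of at least 1, on each of the 24 arrays, glucagon left of insulin. Symbols give the experiment, and open symbols are GW4064 arrays. For Slc25a15 all glucagon arrays lie at 9.16 or above and all insulin arrays at 7.23 or below, while for Cps1 the arrays of experiment 2 lie below those of the other experiments under both hormones.

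Etnppl, which breaks phosphoethanolamine down to acetaldehyde, ammonia and phosphate and is related in sequence to aminotransferases, was listed with the serine, glycine and alanine genes. It stood at 6.59, 7.30 and 8.25 under glucagon and at 4.04, 4.28 and 4.68 under insulin, so that its insulin arrays were just above the floor. The difference was 3.10 (SE 0.18, adjusted p = 1.3e-10), and 2.89, 2.78 and 3.64 by experiment. No other gene of this group of 6 passed. The glycine cleavage system had differences of 0.23 (SE 0.085, adjusted p = 0.0808, and 0.0036 with the block) for its decarboxylase Gldc and 0.23 for its aminomethyltransferase Amt. Gldc differed by 0.34, 0.27 and 0.08 in experiments 1, 2 and 3, and did not pass with 1 difference per experiment. For Agxt and Agxt2, the alanine-glyoxylate aminotransferases, the differences were 0.14 and 0.08, and for Shmt1, which interconverts serine and glycine in the cytosol, -0.02.

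Among the general transaminases, 1 isoform of each pair passed. Got1, the cytosolic aspartate aminotransferase, was at 11.02, 11.27 and 11.46 under glucagon and at 9.44, 9.58 and 9.85 under insulin. Its difference of 1.64 (SE 0.060, adjusted p = 1.3e-13) varied only between 1.42 and 1.82 over the 12 pairs. Got2, the mitochondrial isoform, was at 11.02, 11.31 and 11.47 under glucagon and at 10.99, 11.29 and 11.55 under insulin, a difference of -0.02 (95% interval -0.18 to 0.14). Gpt2, the mitochondrial alanine aminotransferase, was at 10.6, 10.9 and 11.1 under glucagon and at 9.38, 9.79 and 10.1 under insulin, a difference of 1.08 (SE 0.085, adjusted p = 1.1e-08) with no overlap. Gpt, its cytosolic counterpart, had a difference of 0.43 (SE 0.21, adjusted p = 0.221, and 2.9e-04 with the block). Differences between these isoforms were not tested as such. Glud1, glutamate dehydrogenase, which frees ammonia from glutamate, had a difference of 0.03 (95% interval -0.09 to 0.14).

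Proline and ornithine meet at pyrroline-5-carboxylate, which Aldh4a1 oxidises to glutamate. Aldh4a1 was at 4.93, 5.48 and 5.99 under glucagon and at 3.37, 3.69 and 4.14 under insulin, where it was just above the floor. The difference was 1.74 (SE 0.099, adjusted p = 9.5e-11), and 1.87, 1.94 and 1.40 by experiment. Oat, which makes that intermediate from ornithine, was higher by 0.80 (SE 0.21, adjusted p = 0.0095), in 12 of 12 pairs. Prodh, which makes it from proline, had a difference of 0.02 (95% interval -0.14 to 0.19). Prodh2, the hydroxyproline enzyme, had a difference of 0.08 and passed in neither fit.

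All 8 urea cycle genes had a difference above 0, and 3 passed. With the block, under which 12% of all genes were higher, all 8 passed. Slc25a15 exchanges ornithine for citrulline across the inner mitochondrial membrane. It was at 9.16, 9.51 and 9.93 under glucagon and at 6.36, 6.69 and 7.23 under insulin, a difference of 2.72 (SE 0.11, adjusted p = 5.8e-13) and a 6.59-fold higher level. Slc25a13, the aspartate and glutamate carrier that supplies aspartate to the cytosol, was higher by 0.43 (SE 0.13, adjusted p = 0.0219).

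Cps1, carbamoyl phosphate synthetase, commits ammonia to the cycle. Its levels were 8.60, 10.4 and 10.8 under glucagon and 7.41, 9.42 and 9.97 under insulin, with a difference of 1.10 (SE 0.36, adjusted p = 0.0410). Both hormones' arrays were lower in experiment 2, and the groups overlapped although glucagon was higher in 12 of 12 pairs. The difference was 1.14 without experiment 1 (adjusted p = 0.282) and 1.30 without experiment 3 (adjusted p = 0.0648), and the adjusted p with the block was 1.1e-06.

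Arg1, arginase, releases urea and closes the cycle. It was at 5.32, 7.40 and 8.95 under glucagon and at 3.87, 5.80 and 7.09 under insulin. The ranges overlapped widely, and the experiments stood apart at means of 6.62, 5.03 and 7.79. Within each experiment the difference was nearly the same, at 1.60, 1.47 and 1.48, and glucagon was higher in 12 of 12 pairs. The average of 1.51 (SE 0.52) missed the threshold without the block (adjusted p = 0.0558) and passed with it (adjusted p = 1.0e-09). Leaving out experiment 2 also moved it past the threshold, to an adjusted p of 0.0177, as did leaving out experiment 3 (0.0466), whereas without experiment 1 the adjusted p was 0.401.

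The remaining cycle enzymes had smaller differences, which did not pass in the fit without the block. All 4 passed with the block and with 1 difference taken per experiment. They were 0.30 for Otc (adjusted p = 0.418, and 0.0140 with the block), which makes citrulline, and 0.39 for Ass1 (0.0713 and 0.0229), which joins citrulline and aspartate. Asl, which splits argininosuccinate, had 0.22 (0.0862 and 0.0021), and Nags, which makes the activator of Cps1, had 0.21 (0.0855 and 0.0017). Otc was higher under glucagon in 12 of 12 pairs, Nags in 11, Asl in 10 and Ass1 in 9.

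**Figure D3:**
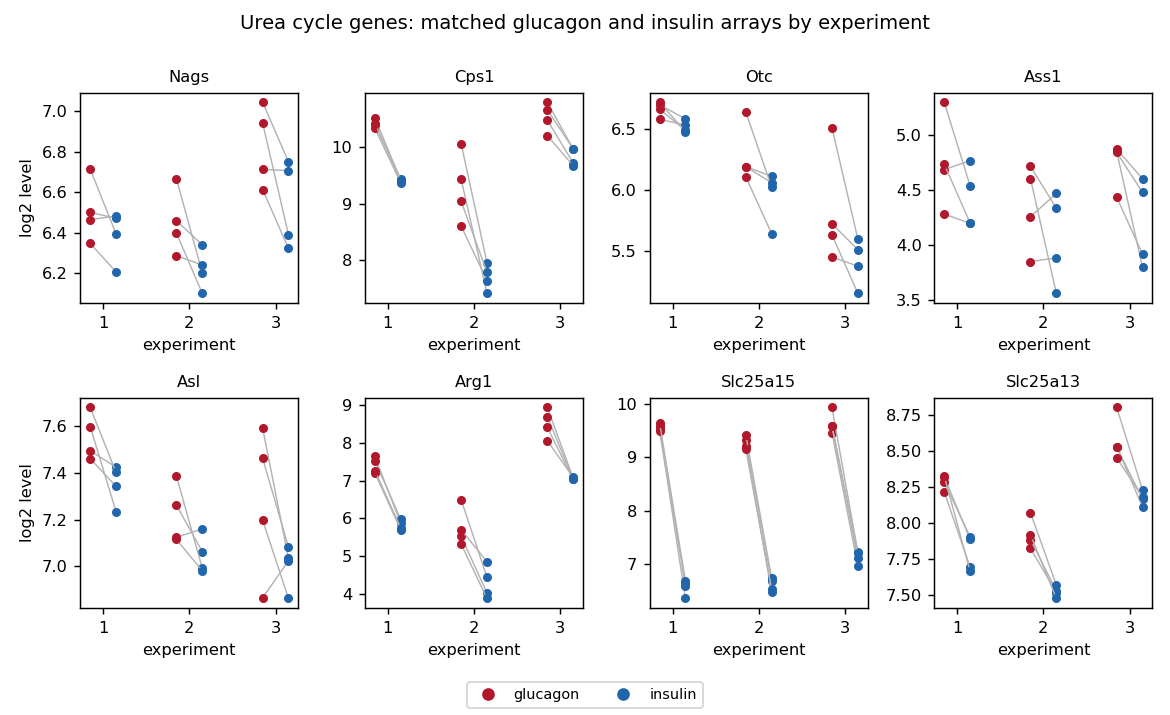
Log2 levels of the 8 urea cycle genes by experiment, with lines joining the glucagon array (red, left) to the insulin array (blue, right) of the same hairpin and drug. For Arg1 the experiments differ by up to 2.77 in mean level while every line falls towards insulin, and for Slc25a15 the hormone sets the order of all arrays.

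In the methionine branch, Mat1a makes S-adenosylmethionine from methionine in liver. It was at 7.25, 9.03 and 9.62 under glucagon and at 5.43, 6.52 and 7.01 under insulin, a difference of 2.33 (SE 0.30, adjusted p = 6.4e-06). Cbs, which commits homocysteine to cysteine synthesis, was at 7.69, 8.18 and 8.57 under glucagon and at 6.09, 7.22 and 7.64 under insulin, a difference of 1.15 (SE 0.17, adjusted p = 4.9e-05). Neither gene's ranges overlapped. Gnmt, which spends S-adenosylmethionine on glycine, had a difference of 0.76 (SE 0.26, adjusted p = 0.0544; block, 1.9e-07). Its adjusted p was 0.357, 0.0020 and 0.0805 without experiments 1, 2 and 3. Cth, which acts after Cbs, had a difference of -0.10 (95% interval -0.26 to 0.06).

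The branched-chain and propionate enzymes had small differences. Of the 9, 5 were higher (7 with the block), the largest by 0.49. Bckdha, a subunit of the dehydrogenase that irreversibly oxidises branched-chain keto acids, was higher by 0.49 (SE 0.12, adjusted p = 0.0067). It did not pass without experiment 1 (adjusted p = 0.0907) or without experiment 2 (0.153). Mut, methylmalonyl-CoA mutase, which feeds propionate carbon into the citric acid cycle, was at 7.55, 7.75 and 7.94 under glucagon and at 7.18, 7.36 and 7.48 under insulin. Its difference of 0.40 (SE 0.043, adjusted p = 6.9e-07) was small but separated all arrays. The leucine enzymes Mccc2, Ivd and Mccc1 were higher by 0.29, 0.26 and 0.16 (adjusted p from 0.0278 to 0.0366). Mccc1 passed in 4 of the 10 other settings. Ivd did not pass when any 1 experiment was left out (adjusted p = 0.0757, 0.159 and 0.0831 without experiments 1, 2 and 3). Mccc2 did not pass without experiment 1 (0.554) or with 1 difference per experiment (0.0830). Bckdhb, Pcca and Pccb had differences of 0.24, 0.17 and 0.13, and Bcat2, which starts branched-chain breakdown mainly outside the liver, was below 4 on all arrays at a difference of -0.01. Bckdhb and Pcca passed with the block, and neither passed with 1 difference per experiment.

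A wider list of 66 neighbouring genes (cofactor enzymes, carriers and later steps), of which 59 were measured, had 19 higher and 0 lower under glucagon, where 7.38% of all genes were higher and 8.85% lower. With the block it had 31 higher and 1 lower, where 12% of all genes were higher and 12.6% lower. Its median difference was 0.19, and this list too was chosen with earlier results of these data known. The differences of at least 1 were those of 5 genes. Bhmt2, which remethylates homocysteine, was at 6.61, 7.20 and 7.54 under glucagon and at 3.21, 4.43 and 4.97 under insulin, a difference of 2.79 (SE 0.17, adjusted p = 2.0e-10). Slc7a2, a carrier of arginine and other cationic amino acids, was at 10.63, 10.96 and 11.27 under glucagon and at 7.96, 8.46 and 8.78 under insulin, a difference of 2.53 (SE 0.10, adjusted p = 9.6e-13). Neither gene's glucagon range reached its insulin range. Dmgdh, which strips methyl groups from dimethylglycine, differed by 2.03 (SE 0.11, adjusted p = 6.0e-11). Slc25a22, a mitochondrial glutamate carrier, differed by 1.92 (SE 0.14, adjusted p = 4.3e-09). Ppm1k, the phosphatase that activates the branched-chain dehydrogenase, was higher by 1.24 (SE 0.058, adjusted p = 5.2e-12), and Bckdk, the kinase that inactivates it, by 0.49 (SE 0.10, adjusted p = 0.0017).

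Other markers moved with the hormone as well. Of the 8 hepatocyte markers, Fga was higher under glucagon by 0.89 and Ttr by 0.27, and 6 did not pass. Sox9, a marker of cholangiocytes, had a difference of -1.20 (adjusted p = 4.6e-04). Krt19 of the same list had a difference of -0.53 (adjusted p = 0.16), and Krt7, Epcam and Cftr were below 4 on all arrays. No marker of the other 4 lists passed. Their part in the amino acid genes' differences was not tested.

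The hormone difference was present within each hairpin and drug condition. Of the 47 genes, 9 were higher with shFOXA2 and GW4064 (1.37% of all genes), 8 with shlacZ and GW4064 (1.29%), 9 with shFOXA2 and DMSO (2.12%) and 10 with shlacZ and DMSO (1.71%). None was lower in any of the 4. With the block these counts were 19, 19, 20 and 22, and 4.08%, 3.91%, 5.32% and 4.66% of all genes were higher. The 4 conditions share no array, yet each of the 3 experiments supplied hepatocytes to all 4. One model of all arrays also gave the 4 tests a common error. A gene passing in all 4 was therefore not repeated 4 times independently. Tat, Aass, Got1, Gpt2, Etnppl, Aldh4a1, Slc25a15 and Mut passed in all 4, Mat1a in 3 and Cbs in 1, and with the block 18 genes passed in all 4.

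**Figure D4:**
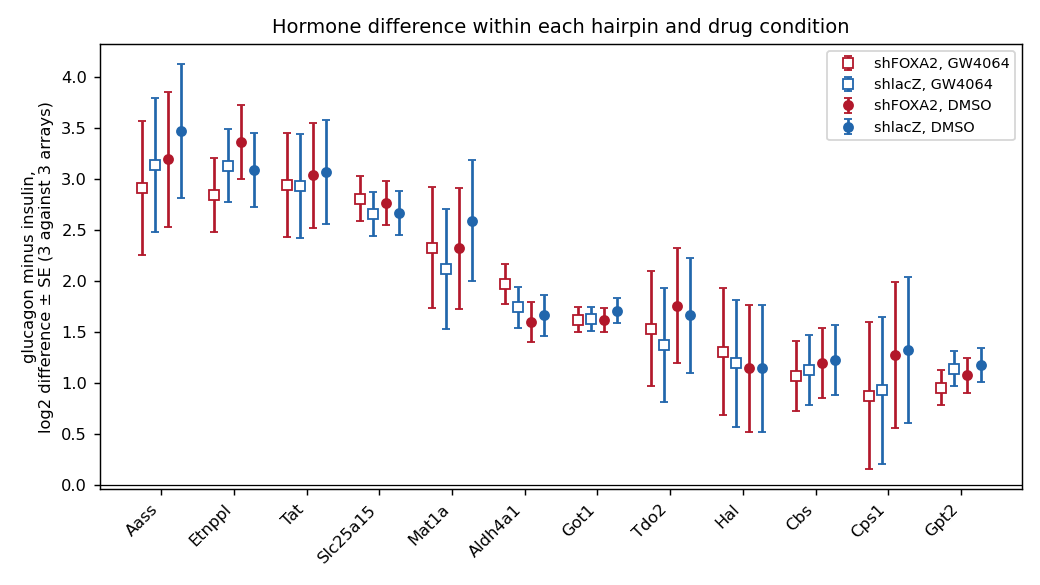
Glucagon minus insulin log2 difference (± SE of the fit, 3 against 3 arrays) of the 12 leading genes within each hairpin and drug condition. For Tat the 4 values lie between 2.93 and 3.07, and for Slc25a15 between 2.66 and 2.80.

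The differences of a gene in the 4 conditions lay within their standard errors of each other for the genes given next. For Tat it was 2.94 with shFOXA2 and GW4064, 2.93 with shlacZ and GW4064, 3.03 with shFOXA2 and DMSO and 3.07 with shlacZ and DMSO (SE 0.51 each). For Mat1a these values were 2.32, 2.11, 2.32 and 2.59 (SE 0.59), and for Aass 2.91, 3.13, 3.19 and 3.46 (SE 0.66). None of the 47 genes passed for a change of the hormone difference with the hairpin, or with GW4064, and 0% of all genes did so in either test. At an unadjusted p under 0.05 the count was 0 of 47 in both tests (4.15% of all genes for the hairpin and 2.63% for GW4064), and 1 and 0 with the block (6.95% and 4.45%). Without the block, the 3 genes nearest to passing for hormone by hairpin were Shmt1 (-0.25, 95% interval -0.62 to 0.11), Bcat2 (0.17, -0.093 to 0.43) and Prodh (-0.20, -0.54 to 0.13). For hormone by drug they were Aldh4a1 (0.22, 95% interval -0.19 to 0.64), Ivd (-0.17, -0.50 to 0.16) and Pcca (0.14, -0.19 to 0.47). These tests were less precise than the averaged ones. For 34 of the 47 genes in each test, the 95% interval of the change lay within -1 to 1, and with the block for 47 (hairpin) and 46 (drug).

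GW4064 passed for none of the 47 genes, averaged over the other conditions (0.00902% of all genes), under glucagon (0%) or under insulin (0%). At an unadjusted p under 0.05 the averaged count was 0 of 47 (3.45% of all genes), and 3 with the block (5.98%). The differences ran from -0.32 (Aass) to 0.09, with a median of -0.03, and 34 of 47 lay below 0, against 52.9% of all genes. Aass was lower with GW4064 in 12 of 12 pairs (adjusted p = 0.9999, and 0.796 with the block). Without the block Mut came nearest to passing, with means of 7.50 with GW4064 and 7.59 with DMSO. Its difference was -0.09 (95% interval -0.18 to 0.00034), and GW4064 was the lower array in 12 of 12 pairs. Pcca, a subunit of propionyl-CoA carboxylase, was next, at 6.71 with GW4064 and 6.87 with DMSO (-0.16, 95% interval -0.32 to 0.0046), and it was the nearest with the block (adjusted p = 0.771). Mccc1, a subunit of the leucine carboxylase, stood at 6.33 with GW4064 and 6.42 with DMSO (-0.09, 95% interval -0.19 to 0.017). Both were lower with GW4064 in 9 of 12 pairs. Under glucagon the nearest were Mut (-0.07), Shmt1 (0.13) and Agxt (-0.17), and under insulin Pcca (-0.23), Mut (-0.11) and Mccc1 (-0.12). All adjusted p were 0.9999 or above for these. The 95% interval of the averaged drug difference lay within -1 to 1 for 45 of 47 genes, the exceptions being Arg1 (-1.30 to 0.89) and Aass (-1.01 to 0.36).

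The hairpin likewise passed for none of the 47 genes, averaged (0.00902% of all genes), under glucagon (0%) or under insulin (0.00451%). The averaged differences ran from -0.14 (Arg1) to 0.23 (Otc), with a median of 0.02. Otc was higher with shFOXA2 in 11 of 12 pairs (adjusted p = 0.906, and 0.345 with the block), and Ivd, at -0.10, was lower in 11 of 12 (0.894 and 0.450). At an unadjusted p under 0.05 the averaged count was 0 (6.2% of all genes), and 4 with the block (11.1%). With the block Kynu came nearest to passing (0.21, adjusted p = 0.278). Without it Pcca did, with means of 6.73 with shFOXA2 and 6.84 with shlacZ, a difference of -0.11 (95% interval -0.27 to 0.057, adjusted p = 0.884). Mut was at 7.57 with shFOXA2 and 7.52 with shlacZ (0.06, 95% interval -0.032 to 0.15), and Mccc2 at 6.03 with shFOXA2 and 5.91 with shlacZ (0.12, 95% interval -0.066 to 0.30). Under glucagon the nearest were Ivd (-0.15), Mccc2 (0.15) and Kynu (0.26), and under insulin Nags (0.18), Mut (0.08) and Bcat2 (-0.11). The 95% interval lay within -1 to 1 for 46 of 47 genes, Arg1 being the exception (-1.24 to 0.95).

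**Figure D5:**
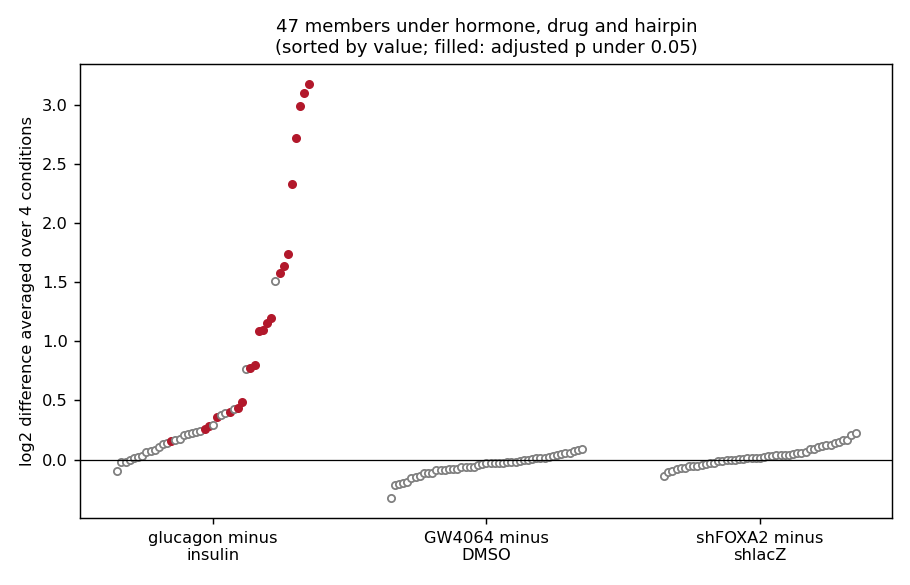
Averaged log2 differences of the 47 genes for hormone, drug and hairpin, each sorted by value, with filled points for those that passed. Hormone differences reach 3.17, whereas drug differences lie between -0.32 and 0.09 and hairpin differences between -0.14 and 0.23.

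The change of the drug difference with the hairpin leaned one way over the list, although no gene passed (0% of all genes did). It was above 0 in 44 of 47 genes (93.6%), against 54.1% of all genes, with a median of 0.13. GW4064 was higher than DMSO in 23 of 47 genes with shFOXA2 and 8 of 47 with shlacZ under glucagon, and in 28 and 7 of 47 under insulin. Of all genes, GW4064 was higher in 53.5% with shFOXA2 and 45.9% with shlacZ under glucagon, and in 46.9% and 44.7% under insulin. The lean was uneven between experiments, with 26, 40 and 43 of 47 genes above 0 in experiments 1, 2 and 3. The hairpin difference of Foxa2 itself was -0.51, -0.66 and -0.12 in these experiments. A link of the lean to the loss of Foxa2 was not tested. The 47 genes were read from the same arrays and are no replicates of each other. At an unadjusted p under 0.05 the count was 1 of 47 (3.18% of all genes), and 9 with the block (5.73%).

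Without the block, Aldh4a1 came nearest to passing for that change, at 0.48 (SE 0.20, adjusted p = 0.9999). Under glucagon its level was 5.71 ± 0.26 with shFOXA2 and GW4064, 5.31 ± 0.18 with shFOXA2 and DMSO, 5.30 ± 0.36 with shlacZ and GW4064 and 5.52 ± 0.032 with shlacZ and DMSO (SD, n = 3 each). The change was 0.51, -0.04 and 0.97 by experiment, so it was not seen in experiment 2. Nags (0.33, 95% interval -0.0029 to 0.67) and Ass1 (-0.56, 95% interval -1.16 to 0.029) came next, and Ass1 was 1 of the 3 genes below 0. With the block the nearest was Gpt, whose change of 0.59 (95% interval -0.30 to 1.47, adjusted p = 0.836) was above that of every other of the 47 genes.

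The level of these genes also varied between the experiments. The mean level over the 8 arrays of an experiment was lowest in experiment 2 for 38 of the 47 genes, in experiment 3 for 9 and in experiment 1 for 0, against 25.4%, 38.0% and 36.6% of all genes. The gap between the highest and lowest experiment had a median of 0.45 over the 47 genes and 0.14 over all genes. It exceeded 1 in 13 of the 47 (27.7%), against 1.65% of all genes. All genes include many near the floor, as 9041 of the 22180 had a mean of at least 4. The gap among those 9041 alone was not computed, so these shares do not compare genes of like level. Arg1 had the widest gap, 2.77, followed by Hpd (6.38, 5.37 and 7.07 in experiments 1, 2 and 3) and Cps1 (9.91, 8.49 and 10.2). Mut and Mccc1 had gaps of 0.08 and 0.07. Among the 59 neighbouring genes, 38 were lowest in experiment 2.

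Marker levels varied between experiments too. Endothelial markers averaged 5.11, 4.27 and 4.51 in experiments 1, 2 and 3, and the hepatocyte list 10.4, 10.3 and 10.8. Alb was 13.1 in each of the 3, and Hnf4a, a transcription factor that maintains hepatocyte genes, was 8.08, 7.52 and 8.13. Their part in the experiment differences of the amino acid genes was not tested.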

How the data were processed

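Expression was measured on Affymetrix MoGene 2.0 ST arrays in 24 samples, 3 in each of 8 groups crossing hairpin, hormone and drug. The authors deposited log2 expression values for 41345 probe sets. Per the series' design text they were processed with GeneSpring and technical replicates were pooled by sample. The log2 scale is inferred from the range, 1.46 to 13.5, and array medians lie between 3.21 and 3.28. How they were normalized is not given in the sources used here. Replicates correlated at 0.986 to 0.994 across genes.

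Gene symbols came from the platform's annotation table, in which 23521 probe sets had 1 symbol, 1814 several and 16010 none, which gave 22180 genes. Got2 and Nags had 2 probe sets, and that of the higher mean was used. A limma model (version 3.58.1, R 4.3.3, moderated with eBayes) was fitted to all 24 arrays with 1 mean per group and 16 residual degrees of freedom, and p-values were adjusted by Benjamini-Hochberg over all genes. It was tested on simulated data. Without the block, the p-values measure the spread between experiments, each a pool of mice. The block takes the shift shared by all arrays of an experiment out of that spread. Residuals of arrays with the same experiment number correlated in all 84 pairs, at r = 0.374 to 0.698, so the numbers pair the arrays, and a fit with the experiment as a block (14 residual degrees of freedom) is given where it changes a call or a count. For averaged differences the 4 pairs of an experiment enter the error as separate, and a fit on 1 difference per experiment was an alternative. Its adjusted p for the hormone was 9.3e-05 for Arg1, 0.0077 for Fah and 0.0104 for Ass1. With the block these were 1.0e-09, 2.4e-05 and 0.0229.

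Values were given for genes with a passing averaged hormone difference of at least 1, and, for each drug, hairpin and interaction test, for the 3 genes of lowest p. Other genes were given by pathway. Motifs were matched in RefSeq promoter windows. The members and lists were chosen with earlier results of these data known. Plots used matplotlib 3.10.9 (Python 3.11.15).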

Additional observations from a re-analysis of the deposited data

How the results depend on the processing

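The number of the 47 genes higher under glucagon, 21 as reported, was 32 with the replicate block and 27 with 1 difference per experiment, and lay between 10 and 19 when an experiment was left out. Of all genes, 24.6% passed in either direction with the block, 16.2% with 1 difference per experiment and 9.1%, 9.99% and 16.3% without experiments 1, 2 and 3, against 16.2% as reported. The 10 that passed without experiment 1 were all among the 21. Genes that lost their call there included Tdo2, Hal, Cps1, Hgd and Oat. With arrays centred on their medians or an intensity trend the count was 19, with quantile normalization 23 and with probe sets averaged 21. Among the 9041 genes with a mean of at least 4 it was 26, where Hgd, Haao, Uroc1 and Bcat2 were not tested. The shares of all genes there were 16.4% with centring, 15.6% with the trend, 16.2% with quantile normalization, 38.5% of the 9041 genes and 16.1% with probe sets averaged. With shFOXA2 and GW4064 the count of 9 became 19 with the block, 16 with 1 difference per experiment and 5 to 8 without an experiment. With shlacZ and GW4064 the count of 8 became 19, 14 and 6 to 9. With shFOXA2 and DMSO the count of 9 became 20, 15 and 6 to 8. With shlacZ and DMSO the count of 10 became 22, 19 and 6 to 9. Centring changed all genes' calls there to 292 higher and 872 lower, from 379 and 660. Fewer samples enter each fit without an experiment, and the cause of the other changes was not tested. For the drug, the hairpin and the 3 interactions the count was 0 in every setting.

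None of the genes whose sign turned passed in either direction. Over the fits without an experiment, Haao ran from -0.023 to 0.048, Glud1 from -0.026 to 0.10, Agxt from -0.0011 to 0.24, Shmt1 from -0.048 to 0.026, Prodh from -0.0027 to 0.056, Bcat2 from -0.036 to 0.056 and Cth from -0.19 to 0.044. Haao was at -0.0099 with centring and at -0.0080 with quantile normalization. The number of arrays limits the precision, and levels near the floor understate folds.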
